A study of Drosophila melanogaster with 4 samples.

Results

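Cytoplasmic ribosomal protein genes were taken as the protein-coding genes whose symbol is RpL, RpS or RpLP followed by a number, on the chromosome arms 2L, 3R and X. The rule found 56 of the 8252 protein-coding genes of these 3 arms, and 54 of them could be placed on the deposited regions and are described here. Ribosomal proteins form, with ribosomal RNA, the large (RpL) and the small (RpS) subunit of the ribosome, the particle that makes all cytoplasmic protein. Their genes are among the most heavily transcribed in growing cells and are usually short. In Drosophila many of them share a pyrimidine-rich initiator at the start of transcription, and losing 1 copy of many of them gives the slow-growing, thin-bristled flies called Minutes.

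The study mapped RNA polymerase II phosphorylated on serine 5 of its C-terminal repeats, the form found where transcription starts and early along the gene, by ChIP-seq with the antibody ab5131. The libraries, 2 of ChIP and 2 of input DNA, all came from Kc167, a female line of genotype se/e made from Drosophila melanogaster embryos of a late stage, with no treatment named. There was no second cell type or treatment, so the ribosomal protein genes are set beside the 7960 other genes that could be placed on the same arms. Kc167 is 1 cell line, and whether the 2 ChIP replicates were grown as separate cultures is not stated, so their spread may be technical.

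Called regions of the 2 ChIP replicates and a combined list, made by the authors from the replicate set, gave the values. On the 3 arms the combined list held 2795 enriched regions over 16.1% of the bases, against 2720 regions over 14.5% in replicate 1 and 2682 over 14.7% in replicate 2. Each region has a score from the authors, on a scale not given in the sources used here. Genes were compared by score only within a list, and values of several lists are given side by side. Regions of input DNA are not analysed here, which leaves no background from input. With no counts in the lists, the sequencing depth is unknown. Cell type markers were checked by the share of each gene that lay in combined regions. Of 5 hemocyte and basement membrane markers, srp was covered over 73.8%, vkg over 16.6% and Col4a1 over 15.5%, while He and NimC1 were at 0. The female marker Sxl was covered over 23.7%. Other cell types gave 0 for the 3 muscle markers Mhc, Act88F and tin, at most 8.78% for 4 neuron markers, 0 for Lsp1alpha and 36.2% for Lsp1beta of the fat body, and 0 to 44.6% for 5 germ line and testis markers. Part of aub lay in the region of RpL9 and part of bam in the region of RpS27.

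The regions are given on FlyBase release 5 and the gene table is of release 6, so the genes were moved by a fixed distance for each arm, by 0 on 2L, 4174 kb on 3R and 106 kb on X. At these distances 42.3% of all gene ends on 2L, 43.6% on 3R and 45.3% on X lay in combined regions. A further move of 20 kb to either side lowered the share to between 21.5% and 22.7% on each arm. In 35 of 38 windows of 2 Mb the best match lay within 2 kb of the distance used. The remaining 3 windows lay at the centromere ends of 2L and X. Genes in these windows were set aside, as were a few, some on 3R, that fell outside the release 5 arm after the move. Together these were 238 genes, among them RpL21 and RpL5.

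**Figure D1:**
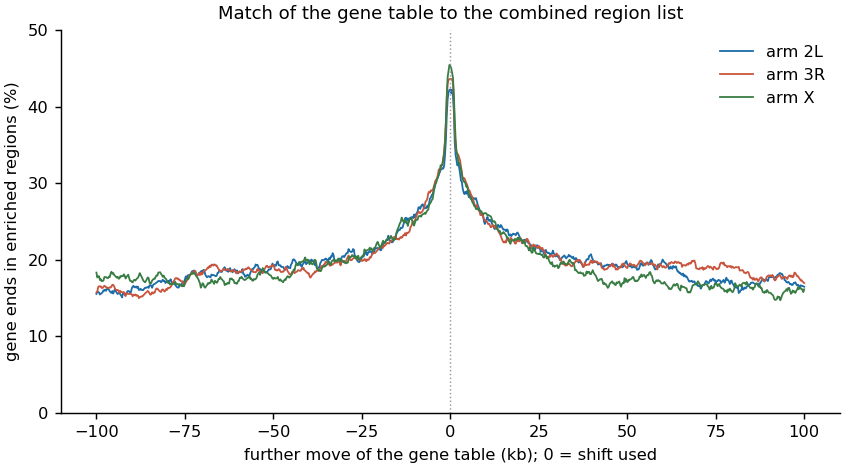
Share of gene ends of all protein-coding genes that lay in combined enriched regions (%, vertical axis) as the gene table was moved further in steps of 250 bp (kb, horizontal axis), with 1 line for each arm. All 3 lines peak at or within 250 bp of the distance used, at 42.3% on 2L, 43.6% on 3R and 45.5% on X.

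The first question was whether the polymerase was called at the ribosomal protein genes. The gene table used here gives no strand, so the start of transcription could not be told from the end of the gene, and both ends were measured. Both ends lay in enriched regions of the combined list for 49 of 54 ribosomal protein genes (90.7%), against 2437 of 7960 other genes (30.6%). The replicate lists gave 48 of 54 (88.9%) each, against 27.1% of other genes in replicate 1 and 27.1% in replicate 2. In all 3 lists together the count was again 48 ribosomal protein genes, against 25.7% of other genes. At least 1 end lay in a combined region for 51 ribosomal protein genes (94.4%), against 57.7% of other genes. With the start site taken as one of the gene ends, the share of ribosomal protein genes with an occupied start therefore lies between 90.7% and 94.4%, against between 30.6% and 57.7% for other genes.

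The called regions covered the whole span of most ribosomal protein genes. Because the regions reach past both ends of these short genes, full coverage cannot tell signal along a gene from signal at 1 end. The full span was covered for 48 of 54 ribosomal protein genes (88.9%), against 22.1% of other genes, in each case by 1 region. At 46 of these 48 genes the region also overlaps other genes, and polymerase of the ribosomal protein gene cannot be told apart from that of its neighbours. Just 3 ribosomal protein genes had no covered base, against 41.0% of other genes. The mean covered share of a gene was 92.0 ± 0.348% for ribosomal protein genes and 34.6 ± 0.352% for other genes (SD, n = 2 replicate lists). The ribosomal protein genes were also shorter, with a median of 1303 bp, against 2185 bp for other genes, and 52 of 54 were at most 3 kb long, against 61.8% of other genes. Among genes of at most 3 kb, both ends lay in combined regions for 90.4% of ribosomal protein genes and 34.1% of other genes. The gap was 56.3 percentage points among short genes and 60.1 among all.

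The genes were next ordered by the part of the ribosome they encode. Of 27 genes for large subunit proteins, 25 had both ends in combined regions, as did 23 of 26 genes for small subunit proteins. The gene of the stalk protein RpLP1, part of the flexible arm that recruits translation factors, had both ends in regions too. On X this held for 14 of 14 ribosomal protein genes, on 2L for 15 of 17 and on 3R for 20 of 23. The other genes of these arms gave 32.7% on X, 30.6% on 2L and 29.4% on 3R.

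All 5 ribosomal protein genes without both ends in combined regions belonged to 2 small sets that were listed apart because of what is known of them. The first set is 6 second copies known for low or gonad-restricted use, namely RpS5b, RpS10a, RpS19b, RpS28a, RpS28-like and RpL10Aa. The second is RpL7-like and RpL24-like, which resemble factors that help to assemble the large subunit in yeast. Without these 8 genes, 46 of 46 ribosomal protein genes were covered from end to end in the combined list and in both replicates. Both sets were chosen with earlier results of these data known, so this split is a description and no independent support.

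RpL10Aa, RpS10a and RpS28-like carried no enriched base in any list. The nearest combined region was 50577 bp from RpL10Aa, 15004 bp from RpS10a and 4234 bp from RpS28-like. RpS5b, an ovary-enriched copy of RpS5a, was covered over 11.8% of its length in the combined list, and 6.45% and 11.7% in replicates 1 and 2. Those bases were the outer 134 bp of a combined region with a score of 1.58 that spans the neighbouring gene VhaPPA1-1 and runs 900 bp and 997 bp past its ends. RpS19b was covered over 85.4% in the combined list, and 80.3% and 80.7% in replicates 1 and 2. It lay between a pair of broad combined regions that hold other genes, of which the first reached 14 bp and the second, with CG5854, Gdh and CG12268, reached 671 bp into its 802 bp. In each replicate only the second region reached it, so RpS19b had both ends in a region in the combined list and 1 end in each replicate.

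RpS28a was the exception among the second copies. Its 304 bp were wholly covered in every list, by a region of 3.16 kb with a combined score of 2.63, against 2.70 in replicate 1 and 2.61 in replicate 2. The same region also overlaps Mgat2, 123 bp away on one side, and Axn, 193 bp away on the other. Polymerase at RpS28a cannot be told apart from polymerase at these neighbours.

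The main copies of these pairs were covered from end to end in all 3 lists, in 7 of 7 genes. Among them RpS19a had a combined score of 3.10, RpS28b 2.71, RpS5a 2.42 and RpS10b 1.89. Where the second copy is not among the 54 genes, the main copies had combined scores of 2.69 for RpL22, 2.42 for RpS15Aa and 2.33 for RpL37-1. Thus RpS5a, RpS10b and RpS19a lay within a region in each list, whereas RpS5b, RpS10a and RpS19b were not spanned by one in any list.

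Pairs in which neither copy is known to be restricted were covered throughout. RpS14a and RpS14b stand side by side, 220 bp apart, inside 1 region of 10.4 kb with a combined score of 2.50, against 2.55 in replicate 1 and 2.72 in replicate 2. RpL34a had scores of 2.02 in the combined list, and 1.99 and 2.06 in replicates 1 and 2. RpL34b had 2.22 in the combined list, and 2.22 and 2.30 in replicates 1 and 2. The handling of reads that match several places was not given in the sources used here, and the split of signal between near-identical copies such as RpS14a and RpS14b is uncertain.

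The 2 assembly-factor relatives differed from each other. RpL24-like was wholly covered, with scores of 2.00, 2.04 and 2.01 in the combined list, replicate 1 and replicate 2. RpL7-like had 1 end in a region in every list, and 92.0% of it was covered in the combined list, and 70.4% and 91.3% in replicates 1 and 2. The region that reached it also overlaps JhI-21, 283 bp away.

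**Figure D2:**
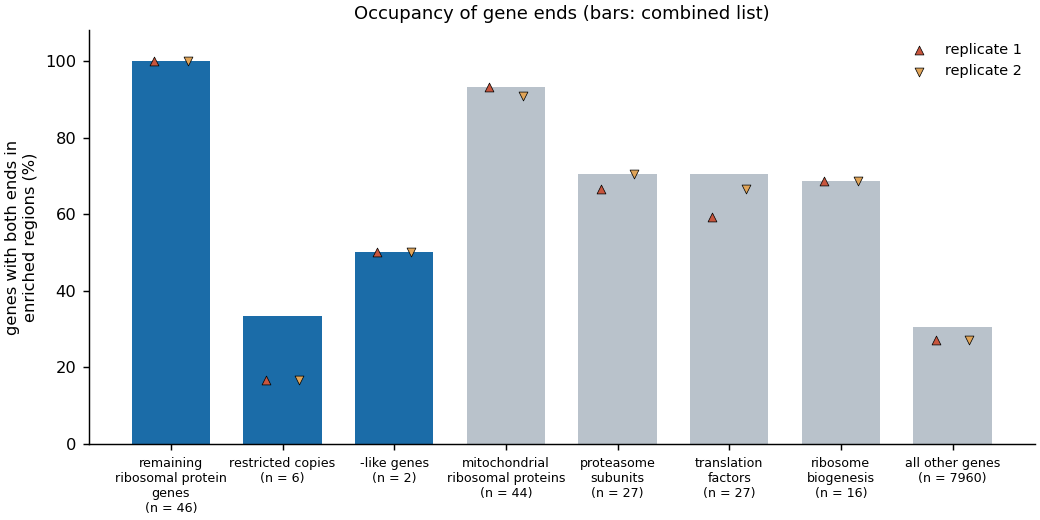
Share of genes with both ends in enriched regions (%, vertical axis) for ribosomal protein genes outside both small sets (remaining), the second copies of low or gonad-restricted use (restricted copies), the -like genes, 4 lists of genes for related machinery and all other genes. Bars give the combined list and triangles the 2 replicates. The lists of related machinery keep their variant copies, unlike the first bar. The first bar is at 100%, the second copies at 33.3% and all other genes at 30.6%, while the triangles of the second copies lie at 16.7% (1 of 6 genes), below the 27.1% of all other genes.

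The second question was how high the authors scored the regions that spanned a ribosomal protein gene. The median combined score was 2.37 over the 48 ribosomal protein genes that lay within 1 region (range 1.71 to 3.25), against 1.71 over the 1763 other genes of that kind (range 0.03 to 3.56). Over the 2 replicate lists the median was 2.43 ± 0.05 for ribosomal protein genes and 1.80 ± 0.02 for other genes (SD, n = 2). The score lay at or above percentile 75 of all enriched regions for 38 of 48 ribosomal protein genes, against 30.9% of other genes. At the median ribosomal protein gene the region stood at percentile 85.2 of the combined list, against 63.7 for other genes.

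Genes that share a region share its score, so the regions were also counted once each. The 48 ribosomal protein genes lay in 46 combined regions with a median score of 2.35, against 1.61 for 884 other regions that span at least 1 gene. None of the 46 regions scored below the median of its list, whether combined or replicate, against 312 of the 884 in the combined list, 297 of 802 in replicate 1 and 307 of 814 in replicate 2. The region at RpL5, set aside by the position check, is not among the 46 and scored below the median in every list. Among the 100 combined regions with the highest scores, 3 spanned a ribosomal protein gene, which is 6.52% of the 46. The other 97 were 3.53% of all 2749 other regions, and the share was 2.38% for the 884 that span a gene. With 3 regions, these shares do not settle a difference.

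The order of the genes began with a single stretch of 3R. RpL3, whose protein reaches the catalytic centre of the large subunit, and RpS25, of the small subunit, lay in the same region of 13.0 kb, at 7039106 to 7052136 of 3R in release 5. Its score was 3.25 in the combined list, and 3.27 and 3.23 in replicates 1 and 2. RpS19a followed with 3.10, 3.16 and 3.07 in the same order of lists, in a region of 6.15 kb on X. RpL30 had 3.08, 3.16 and 3.09 in a region of 4.05 kb on 2L. These 4 genes were the only ribosomal protein genes above 3 in the combined list.

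The next 6 genes lay between 2.69 and 2.90 in the combined list. RpS2, a small subunit protein near the path of the messenger RNA, had 2.90 in the combined list, and 2.82 and 2.98 in replicates 1 and 2. RpS21, whose loss in flies overgrows the blood-forming organs, had 2.82, 2.87 and 2.77 in the same order of lists. RpS29 had 2.78, 2.76 and 2.85, and RpL13A had 2.72, 2.73 and 2.75. RpS28b had 2.71, 2.70 and 2.73, and RpL22 had 2.69, 2.68 and 2.72. Within lists, RpS21 was above RpS2 in replicate 1 and RpS29 was above RpS21 in replicate 2, so the order within these pairs is not settled. RpL13A, RpS28b and RpL22 kept the same order in all 3 lists, though their scores lay close together.

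The low end of the order was still above the median of the list, which was 1.41 for combined regions. This holds for the placed genes only, as RpL5, set aside by the position check, would lie below with 1.19 if its position holds. Among the placed genes RpL35A was lowest with 1.71 in the combined list, and 1.78 and 2.04 in replicates 1 and 2. RpL35 had 1.79, 2.12 and 1.89, and RpL7 had 1.85, 1.84 and 1.85. RpS10b had 1.89, 1.86 and 1.93, and RpS27 had 1.95, 2.04 and 2.15. Of these, RpL35A and RpS27 lay in broad combined regions of 17.3 kb and 22.6 kb that overlap 7 and 8 other genes. A score belongs to the whole region, so a low value in such a region is not a value of the ribosomal protein gene alone.

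**Figure D3:**
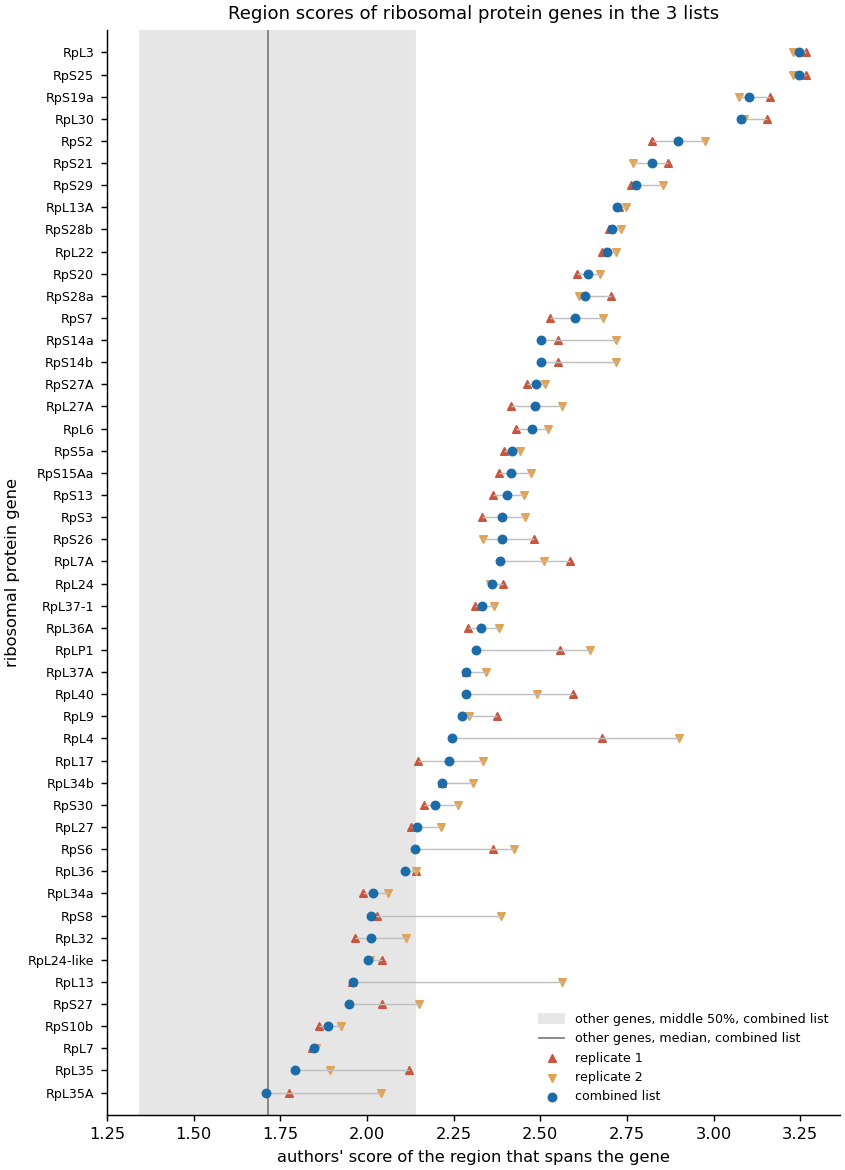
Authors' score of the region that spans each of 48 ribosomal protein genes (horizontal axis, scale not given) in the combined list (circles), replicate 1 (triangles pointing up) and replicate 2 (triangles pointing down), ordered by the combined score. The shaded band and the line give the middle 50% and the median (1.71) of other genes in the combined list. RpL35A at 1.71 is the lowest circle, and RpL3 and RpS25 at 3.25 are the highest.

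A further 6 genes were named for known roles. RpL40 and RpS27A encode ribosomal proteins fused to ubiquitin, and RpS30 encodes one fused to a ubiquitin-like protein. RpL40 had a score of 2.28 in the combined list, and 2.59 and 2.49 in replicates 1 and 2. RpS27A had 2.49, 2.46 and 2.51, and RpS30 had 2.20, 2.16 and 2.26. RpS6, the substrate of the growth-controlled S6 kinase, had 2.14, 2.36 and 2.42. RpS3, at the entry of the messenger RNA channel and also linked to DNA repair, had 2.39, 2.33 and 2.46. RpLP1 had 2.31, 2.56 and 2.64. All 6 genes were above the median of other genes in all 3 lists.

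The remaining ribosomal protein genes filled the same range, and RpL13 at 1.96 was the lowest of them in the combined list. Genes of the small subunit had a median combined score of 2.49 (22 genes) and genes of the large subunit 2.27 (25 genes). Both replicates gave the same order, with 2.51 and 2.56 for the small subunit against 2.29 and 2.35 for the large subunit in replicate 1 and replicate 2. The ranges overlapped over almost their full width, from 1.89 to 3.25 for the small and from 1.71 to 3.25 for the large subunit. The 3.25 at the top of both is 1 region, shared by RpS25 and RpL3. The difference was not tested.

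The replicates gave close values for most of these genes. The 2 replicate scores of a gene differed by a median of 0.09, and across the 48 genes the scores of the replicates correlated with a Pearson r of 0.927 and a Spearman rho of 0.906. Region edges differed by a median of 34.5 bp. Replicate 2 gave the higher score for 34 genes and replicate 1 for 14. The largest gap was at RpL13, with 1.96 in replicate 1 and 2.56 in replicate 2, where the region was 13.8 kb wide in replicate 1 and 4.45 kb in replicate 2.

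The combined list was not a midpoint of the replicates. For 9 ribosomal protein genes its region was more than 1 kb wider than in both replicates, and in 9 of 9 both replicate scores exceeded the combined score. This was the case for 8 of the 39 others. Scores were higher in the replicate lists in general, with a median over all enriched regions of 1.50 in replicate 1 and 1.52 in replicate 2, against 1.41 in the combined list. By percentile within its own list, the region stood higher in both replicates for 7 of the 9 genes and 1 of the 39 others. The 9 genes were RpS27, RpL7A, RpL4, RpLP1, RpL35A, RpS6, RpS14a, RpS14b and RpL40. At RpL4 the combined region was 12.2 kb wide with a score of 2.25, against 6.98 kb and 2.68 in replicate 1 and 6.33 kb and 2.90 in replicate 2. Whether the wider call lowered the score was not tested. How the authors combined the replicates was not given in the sources used here either.

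The third question was how far the regions reached and what else they held. Regions around ribosomal protein genes had a median width of 7.82 kb and those around other genes of 7.27 kb in the combined list, counted by gene. The order turned in the replicates, with 6.39 kb for ribosomal protein genes against 6.47 kb for other genes in replicate 1, and 6.55 kb against 6.59 kb in replicate 2. Both flanks of the gene were at least 1 kb long for 45 of 48 ribosomal protein genes (93.8%), against 61.0% of the 1763 other genes, in the combined list. In each replicate this was 89.6% of ribosomal protein genes, against 57.6% of other genes in replicate 1 and 58.9% in replicate 2. The ribosomal protein genes were shorter than other genes, and flanks were not compared among genes of like length. The shortest flank of a ribosomal protein gene was 649 bp, at RpS26. The calls thus extended well past the genes on both sides.

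**Figure D4:**
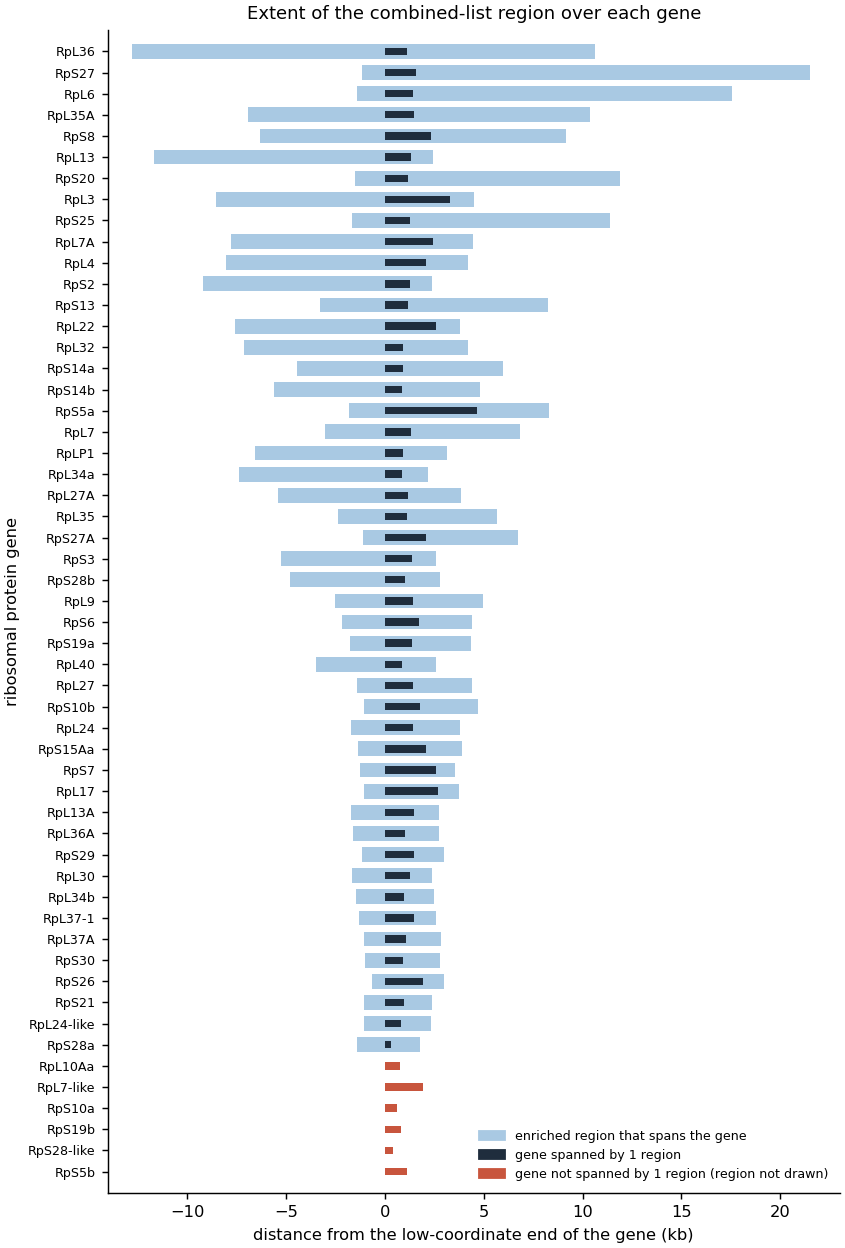
Extent of the combined region (light bars) over each of 54 ribosomal protein genes (dark or red bars), as distance from the low-coordinate end of the gene (kb, horizontal axis), ordered by region width. The regions run from 3.16 kb at RpS28a to 23.4 kb at RpL36, and the 6 genes drawn in red at the bottom are not spanned by 1 region.

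Almost all of these regions overlapped further genes. A region around a ribosomal protein gene overlapped a median of 4 genes, that gene included, and one around another gene also overlapped a median of 4. RpS26 and RpL17 were the only ribosomal protein genes alone in their region. RpS26, of the small subunit, had a score of 2.39 in the combined list, and 2.48 and 2.34 in replicates 1 and 2, with a combined region of 3.62 kb. RpL17, which lines the exit tunnel of the large subunit, had 2.24, 2.15 and 2.33 over 4.77 kb. Where genes were alone in their region, the higher score of ribosomal protein genes did not hold in every list. The median of these 2 genes in the combined list was 2.31, against 2.01 for 19 other genes alone in a region. In replicate 1 it was 2.31, against 2.46 for 17 other genes, and in replicate 2 it was 2.34, against 2.31 for 18 other genes. The gap was thus 0.30 in the combined list, and -0.15 and 0.024 in replicates 1 and 2, with 2 ribosomal protein genes behind each value. Among all spanned genes it was 0.66, 0.61 and 0.65 in the same order of lists.

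Across classes of region width, medians lay from 2.30 to 2.39 with a ribosomal protein gene and from 1.40 to 1.99 without. In regions under 5 kb the median combined score was 2.36 with a ribosomal protein gene (14 regions) and 1.40 without (371 regions). From 5 to 10 kb it was 2.30 with a ribosomal protein gene (16 regions) and 1.68 without (368 regions). In regions of 10 kb or more it was 2.39 with a ribosomal protein gene (16 regions) and 1.99 without (145 regions). The gap was widest among narrow regions. In the widest class the median was 2.27 with and 2.15 without in replicate 1, and 2.45 with and 2.14 without in replicate 2.

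Ribosomal protein genes often carry small nucleolar RNA genes, which guide the modification of ribosomal RNA, inside their introns. Within their span, 15 of 54 ribosomal protein genes held 44 such genes (27.8% of the genes), against 30 of 7960 other genes (0.377%) with 62. All 15 hosts lay within a combined region, with a median score of 2.48 (range 2.01 to 3.25), against 2.31 (range 1.71 to 3.25) for the 33 spanned ribosomal protein genes without one. The medians of hosts and of the others were 2.58 and 2.36 in replicate 1, and 2.67 and 2.37 in replicate 2. The ranges overlapped in every list, and the difference was not tested. The top of both ranges is 1 region, shared by the host RpL3 and by RpS25, which holds no such gene.

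The ribosomal protein genes were last set beside genes of related machinery on the same arms. Both ends lay in combined regions for 49 of 54 genes of cytoplasmic ribosomal proteins (90.7%), against 41 of 44 genes for proteins of the mitochondrial ribosome (93.2%), which translates the genome of that organelle. Over the replicates the shares were 88.9 ± 0% for cytoplasmic and 92.0 ± 1.61% for mitochondrial ribosomal proteins (SD, n = 2). The scores lay further apart, with a median of 2.37 for cytoplasmic and 1.57 for mitochondrial ribosomal proteins in the combined list, and 2.43 ± 0.05 and 1.54 ± 0.01 over the replicates.

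**Figure D5:**
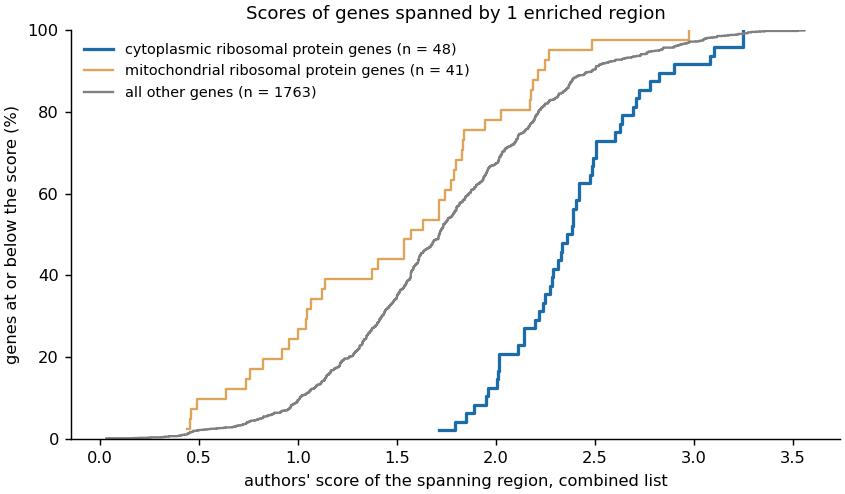
Cumulative share of genes (%, vertical axis) at or below a given authors' score in the combined list (horizontal axis, scale not given), for genes spanned by 1 region. The curve of 48 cytoplasmic ribosomal protein genes starts at 1.71, where the curve of 1763 other genes is at its median and that of 41 mitochondrial ribosomal protein genes is past its median of 1.57.

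Other lists lay between the ribosomal protein genes and all other genes in both measures of the combined list. Proteasome subunits, of the main protein-degrading complex, had both ends in combined regions at 19 of 27 genes (70.4%) with a median score of 1.88. In this list 8 genes had no covered base, each of them a variant copy such as Prosalpha3T or Prosbeta4R1. The 19 genes with both ends in combined regions are all the rest of the list. They include the variant copies Prosbeta2R2, covered over 87.2%, and Rpt3R and Rpt6R, both covered over 100%, so not all variant copies were uncovered. Occupied ends at every gene outside variant copies were thus not particular to ribosomal protein genes. Translation initiation and elongation factors gave 19 of 27 (70.4%) and 1.80, with the initiation helicase eIF4A at 2.91 and the elongation factor eEF2 at 2.77. In this list 4 genes had no covered base, namely eIF3d2, eIF3g2, eIF4H2 and eIF4E7. Among genes that share their names but for the number, eIF3d1, eIF3g1 and eIF4E6 were wholly covered and eIF4H1 over 55.1%. Factors of ribosome biogenesis gave 11 of 16 (68.8%) and 1.80, although in replicate 2 their median of 1.79 was below the 1.81 of all other genes. The median score of the ribosomal protein genes was above those of these 4 lists in every deposited list. The gene sta, which encodes the small subunit protein RpSA under a name that the rule does not catch, had 3.22 in the combined list, and 3.20 and 3.29 in replicates 1 and 2.

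A few of these genes share a region with a ribosomal protein gene and so have the same score. In the combined list they were mRpL27 with RpL27A, mRpL44 with RpL35A, mRpS22 with RpL4, and bys, a factor for the small subunit, with RpS6. Without its 3 shared genes the mitochondrial list had a median of 1.54 over 38 genes. In both replicates mRpS22 and RpL4 lay in separate regions, while mRpL27, mRpL44 and bys again lay in those of RpL27A, RpL35A and RpS6.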

How the data were processed

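ChIP-seq libraries were aligned with Bowtie 0.12.7, per the submitters' processing notes. The authors deposited called regions for each ChIP replicate and for the replicate set, each with a type and a score. Positions are on FlyBase release 5, per the file headers. The caller, its threshold, its control and the combining step were not given in the sources used here. Depth is unknown, and the number of lists limits the precision.

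Rows with a score above 0 were used. Genes came from a RefSeq table of release 6 and were moved to release 5 by arm. They were kept where they lay on the release 5 arm and the best match in their 2 Mb window lay within 2 kb (scan of 100 kb to each side in steps of 250 bp). The table gives no strand, so both gene ends replaced the planned start site, and the planned promoter motifs were not analysed. A gene has a score where 1 region spans it. No test was run, and all values are descriptions. The overlap code was tested on simulated data. Genes were named by a rule: incomplete genes, the 10 highest and 5 lowest scores, duplicates, -like genes, ubiquitin fusions, RpS6, RpS3 and RpLP1. RpL4, RpL13, RpS26, RpL17 and other further names were chosen after their values were seen. The genes and lists were chosen with earlier results of these data known. Tools were pandas 2.3.3 and numpy 2.4.6 under Python 3.11.15, scipy 1.17.1 for correlations, and matplotlib 3.10.9 for figures.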

Additional observations from a re-analysis of the deposited data

How the results depend on the processing

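The gap in genes with both ends in regions, ribosomal protein genes minus other genes, was 60.1 percentage points. It was 61.7 to 61.8 in single replicates, 63.1 in all 3 lists, 58.8 with ends within 250 bp of a region, 71.98 for regions at or above the median score, 61.1 for other genes whose region holds no ribosomal protein gene, 63.7 for genes over 1 kb from any other (3 ribosomal protein genes against 943 others) and 69.4 without second copies and -like genes. Among genes over 1 kb from any other, the shares behind the gap were 66.7% and 2.97%, against 30.6% for all other genes in the main setting. The gap in mean covered share was 55.0 points, and 57.4 in either replicate, 54.9 with spans extended by 250 bp, 76.7 for summed bases and 49.2 for genes of at most 3 kb. The gap in median score was 0.66, and 0.61 to 0.65 in single replicates, 0.70 for regions with no ribosomal protein gene among the others and 0.30 for single-gene regions. In single-gene regions of the replicates, a setting chosen after seeing the data, it was -0.15 in replicate 1, where the direction turned, and 0.024 in replicate 2. Each value rests on 2 ribosomal protein genes, and the cause was not tested. Among other lists, single replicates gave 90.9% to 93.2% for mitochondrial ribosomal proteins, 66.7% to 70.4% for proteasome subunits and 59.3% to 66.7% for translation factors. Further settings chosen after seeing the data gave, for ends, 36.8 with at least 1 end, 61.1 with all genes and 56.3 for genes of at most 3 kb, and for covered share 56.0 with all genes and 62.6 without second copies and -like genes. Of 27 gaps between ribosomal protein genes and other genes under these alternatives, 26 were positive, and the exception was that of single-gene regions in replicate 1. The alternatives share genes and lists, so they are not separate checks. The settings without second copies and -like genes leave only wholly covered ribosomal protein genes, so their sign was fixed in advance. No paired analysis was possible because input regions were not analysed here and no other group of samples exists to pair with the ChIP replicates. Neighbouring genes inside a region, the missing strand and unknown depth limit all values.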

Other observations

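RpL21 and RpL5 were set aside because their window on 2L did not pass the position check. At the distance used for the rest of the arm, RpL21 lay in a region of 3.18 kb with a score of 2.49 in the combined list, and 2.54 and 2.46 in replicates 1 and 2. RpL5 lay in a region of 8.07 kb with 1.19, 1.17 and 1.21, which would be the lowest score of a ribosomal protein gene if its position holds. No ribosomal protein gene of the 56 touched any of the regions that the authors typed as depleted, of which there were 67 combined, 17 in replicate 1 and 16 in replicate 2. These overlapped 44, 18 and 13 of the 7960 other genes. With so few genes touched, none among 56 is not a result about the ribosomal protein genes.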
